A study of Homo sapiens with 12 samples.

Results

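The genes described here are the receptors and ligands of the FGF, EGF and insulin-like growth factor (IGF) families, the proteins that damp their signal, and the immediate early genes that the signal switches on. They were a list of 56 symbols, matched to the gene identifiers of the deposited count tables, which hold 63241 genes in all. Every symbol was found, and 49 of the 56 had enough counts to be tested, among 19373 genes tested. The 12 libraries were made by poly-A selection from MDA-PCA-2B, a cell line derived from human prostate cancer, although the growth protocol in the labels also names MDA-PCa-2a and the conflict is not settled there. The 4 groups of 3 libraries are KDR, the rescue of the knockdown of KD2 by the series' design text; KD2 and KD1, the libraries labelled DHODH-Knock Down 2 and DHODH-Knock Down 1; and NT, which they are set against. KDR is used here for that group and not for the receptor gene of the same symbol. The labels do not say what NT stands for, which construct was used, how the rescue was made, or whether the libraries of a group came from separate cultures, so p-values measure the spread between these libraries, which may be technical.

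Growth factors bind receptor tyrosine kinases at the cell surface, which switch on RAS and, through RAF and MEK, the kinase ERK. ERK activity drives immediate early genes such as FOS, JUN and EGR1 within minutes, and then a second layer of genes that shut the pathway down: DUSP phosphatases remove the activating phosphates from MAP kinases, and Sprouty and SPRED proteins act between the receptor and RAF. IGF binding proteins hold IGFs outside the cell and so control how much reaches the IGF1 receptor. Transcript levels do not measure the activity of any of these proteins.

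Libraries held 23786288 to 38240369 counts. The biological coefficient of variation between libraries was 5.52% in KDR, 7.18% in KD2, 6.61% in KD1 and 15.75% in NT, and 8.56% in NT without NT replicate 2, the library that stands apart from the other 2 of its group. DHODH, the labelled target and the mitochondrial enzyme of pyrimidine synthesis, had 18.9, 19.2 and 17.5 CPM in KDR, 11.4, 13.0 and 14.9 CPM in KD2, 11.0, 10.4 and 9.63 CPM in KD1 and 9.19, 13.4 and 8.95 CPM in NT (CPM is counts scaled to a fixed library total after TMM scaling). DHODH was not lower in the libraries labelled as knockdowns: the log2 fold change against NT was 0.31 in KD2 and -0.03 in KD1, and neither was called, although without NT replicate 2 the value in KD2 was 0.52 and was called. DHODH rose in KDR against KD2 (0.51) and against NT (0.82). Of 12 immune markers none reached 1 CPM, and their sum was 0.212 to 1.19 CPM over all libraries, with CD3E and CD68 at 0. Of 8 endothelial markers only EGFL7 and ESAM reached 1 CPM (sum 24.7 to 37.6 CPM), with CDH5 at 0 and PECAM1 at or near 0, and of 12 fibroblast and smooth muscle markers 2 or 3 did (sum 13.3 to 23.6 CPM), with POSTN at 0. Neuroendocrine markers summed to 4.06 to 4.80 CPM in KDR libraries, 8.16 to 9.81 CPM in KD2 libraries, 6.11 to 6.93 CPM in KD1 libraries and 5.87 to 7.16 CPM in NT libraries. The members of this sum did not move together. Of 6 tested, only ENO2 was called in KD2 against NT, at 4.67 CPM in KD2 and 2.03 CPM in NT (35.9% of all genes tested were called). In KDR against NT only INSM1 was called, with a log2 fold change of -2.43 (27.5% of all genes tested were called). Of 15 luminal prostate markers, 1 rose and 13 fell in KD2 against NT (17.8% of all genes tested rose and 18.2% fell) and 13 rose in KDR against KD2 (15.3% of all genes rose), and their summed level was 22036 to 22363 CPM in KDR libraries, 14323 to 14811 CPM in KD2 libraries, 21958 to 22291 CPM in KD1 libraries and 21770 to 24689 CPM in NT libraries. The part of these shifts in the results that follow was not tested, and in bulk RNA fewer cells of a type and less RNA per cell cannot be told apart.

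Immediate early genes were the most abundant of the 49 tested genes, with levels compared between genes in TPM. This scale corrects for library size and for the total length of all annotated exons of a gene. That length can exceed the length of the transcripts made, so orders between genes are approximate. EGR1, a zinc finger transcription factor, averaged 3904 TPM in KDR, 3881 TPM in KD2, 3469.6 TPM in KD1 and 3356 TPM in NT. FOS and JUN, the partners of the AP-1 transcription factor, followed in NT at 3047 and 2209 TPM. The spread over NT libraries was 3356 ± 268 TPM for EGR1 and 3047 ± 72.7 TPM for FOS (SD, n = 3), and EGR1 lay above FOS in 2 of 3 NT libraries, so their order in NT does not hold beyond the spread. In KD2 the order differed at the top, since IGFBP3 reached 3466 TPM there, next to 3206 TPM for FOS. Among ligands, TGFA led in every group, at 228 TPM in KDR, 174 TPM in KD2, 337 TPM in KD1 and 319 TPM in NT. Among receptors that signal, ERBB3 and IGF1R led in NT at 168 and 139.7 TPM, while MET and FGFR4 were under 3 TPM in every group. Of the tested genes that are not receptors, FGF13, AREG and FOSL1 were under 3 TPM in every group.

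**Figure D1:**
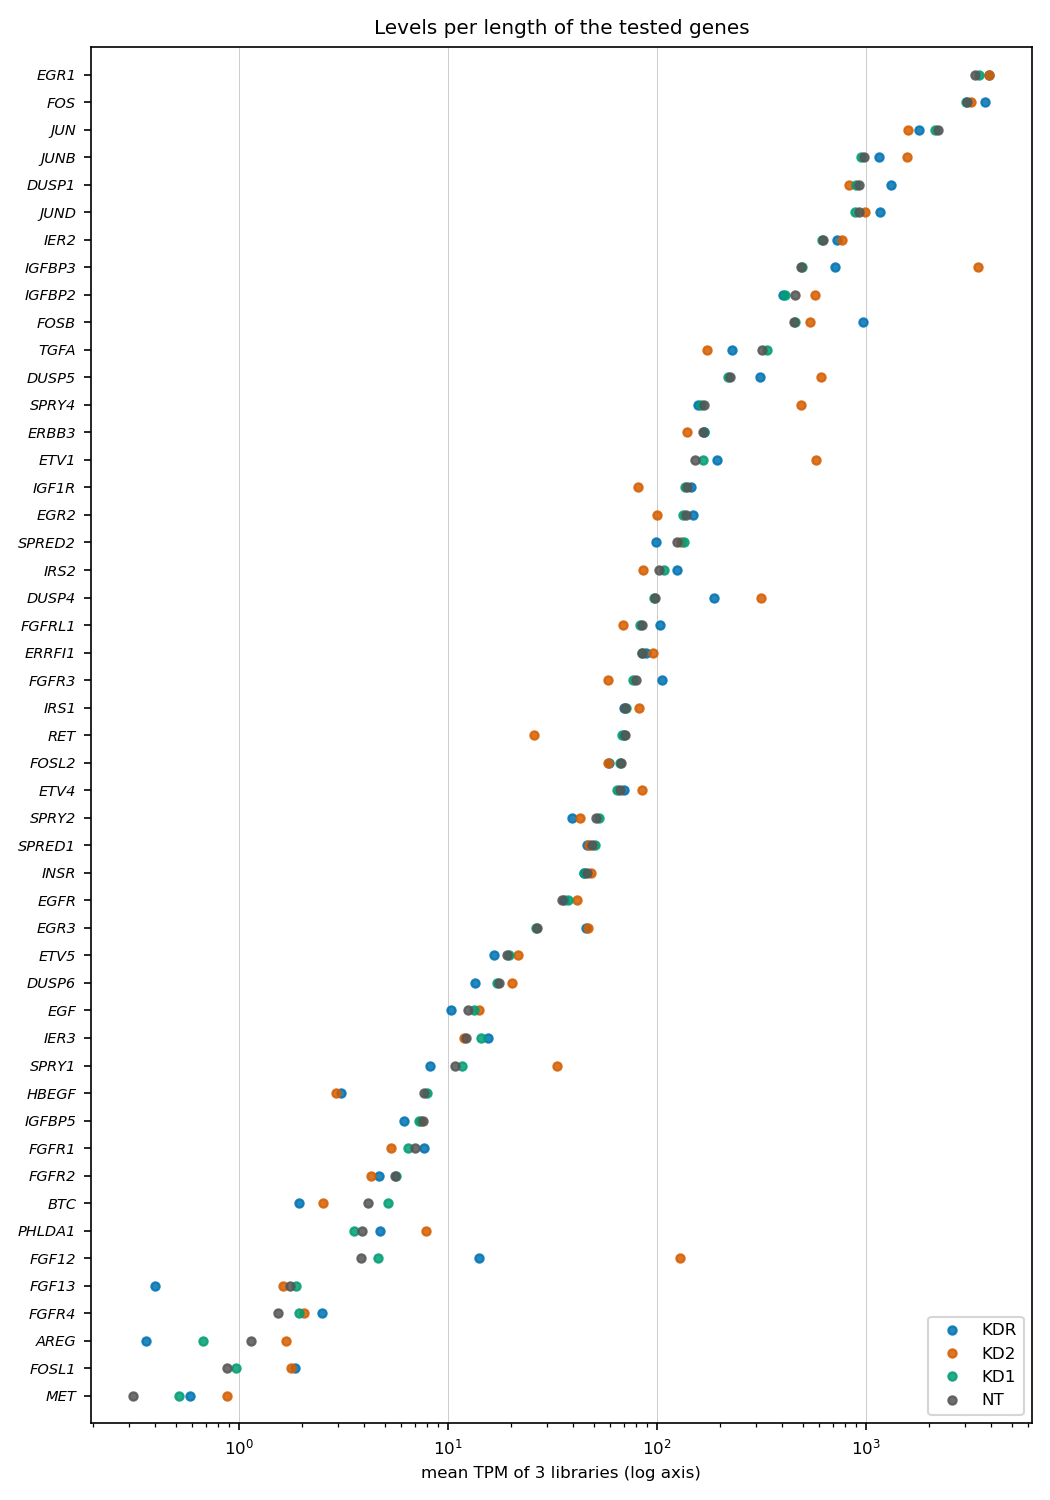
Mean TPM of 3 libraries for each of the 49 tested genes on a log axis, ordered by the NT mean, with 1 point per group (KDR, KD2, KD1, NT). EGR1, FOS and JUN lie at the top and MET at the bottom, and the KD2 points of IGFBP3, FGF12, ETV1 and SPRY4 lie far right of the NT points.

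KD2 libraries differed from NT libraries in most of these genes. At an adjusted p under 0.05 (edgeR quasi-likelihood test, Benjamini-Hochberg over all 19373 genes), 19 members were higher and 16 lower in KD2, which makes 35 of 49, while 17.8% of all genes tested were called higher, 18.2% lower and 35.9% in either direction. The median log2 fold change was 0.20 over the 49 members and -0.01 over all genes tested. Members were chosen with earlier results of these data known, so the contrast with all genes is a description and no test of the list. Of the 35, 11 members changed by 1 or more on the log2 scale, 9 higher (FGF12, IGFBP3, ETV1, DUSP4, SPRY1, SPRY4, MET, DUSP5 and PHLDA1) and 2 lower (RET and HBEGF). Of all genes tested, 9.27% were called with a change of that size. In KDR against KD2, 14 members were higher and 22 lower, 36 of 49 in all, against a background of 15.3% of all genes called higher, 17.1% lower and 32.4% either way. In KDR against NT, 15 members were higher and 12 lower, 27 of 49 in all, against a background of 13.0% higher, 14.5% lower and 27.5% either way. KD2 against NT and KDR against KD2 share the KD2 libraries, and KD2 against NT and KDR against NT share the NT libraries, so these comparisons are not independent and their values are given side by side. Without NT replicate 2 the called members numbered 37 in KD2 against NT, 37 in KDR against KD2, 33 in KDR against NT, 38 in KD2 against KD1 and 0 in KD1 against NT. Over all 20065 genes tested in that setting, 7582, 7876, 6180, 8219 and 0 were called in the same comparisons, so the background changed as well.

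**Figure D2:**
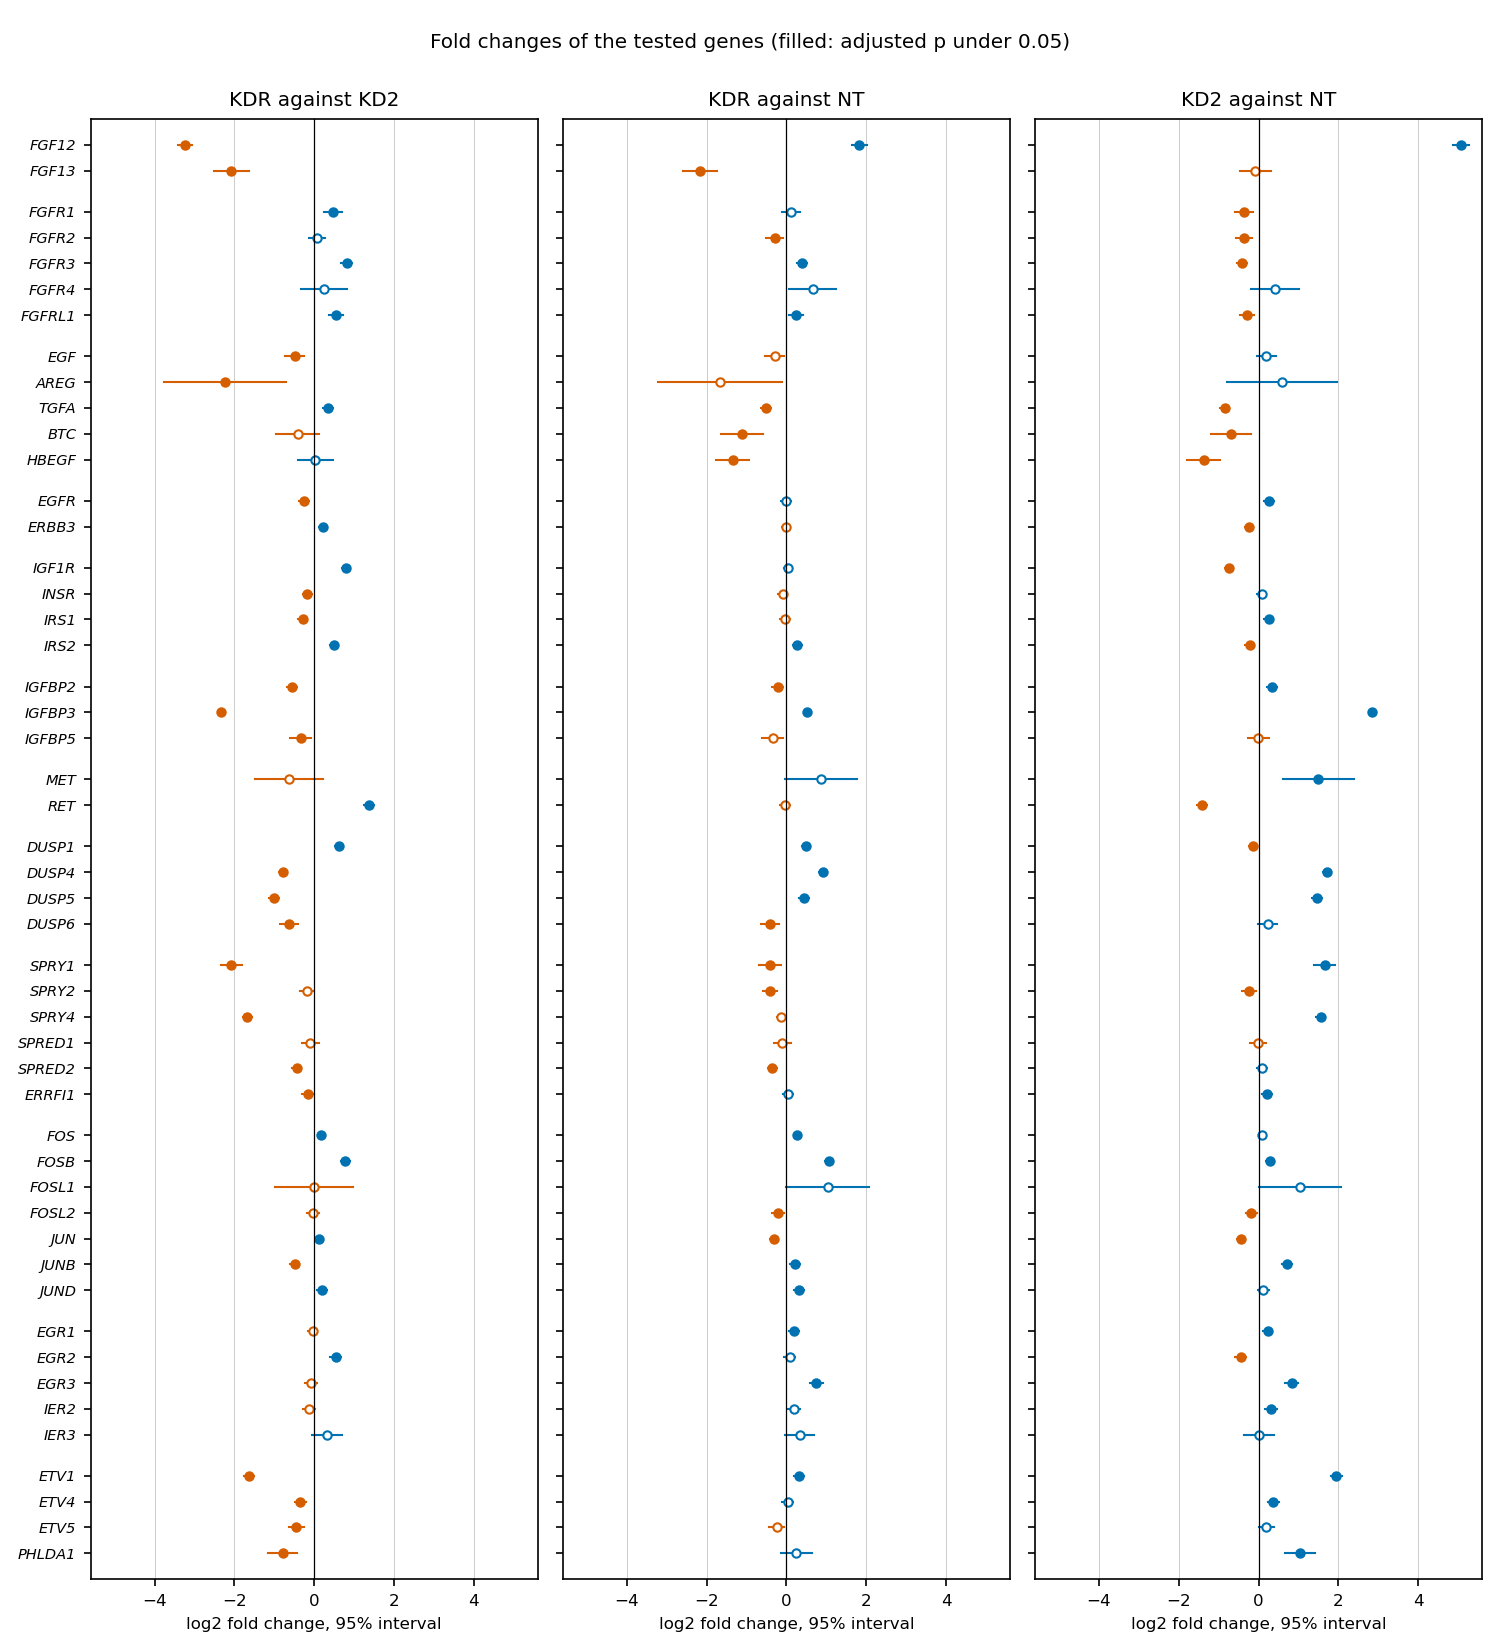
Log2 fold change with its 95% interval for the 49 tested genes, in blocks by role, for KDR against KD2, KDR against NT and KD2 against NT. Filled points have an adjusted p under 0.05; FGF12 at 5.07 and IGFBP3 at 2.85 are the farthest right in KD2 against NT, and RET at -1.42 the farthest left.

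Of the 4 FGF genes on the list other than receptors, FGF12 and FGF13 had enough counts to be tested, and FGF12 rose in KD2. FGF12 (ENSG00000114279, chr3:192139390-192767764, minus strand) encodes an FGF homologous factor that stays inside the cell, where it is known for binding voltage-gated sodium channels. It had 37.8, 39.8 and 40.4 CPM in KDR libraries, 386, 373 and 355 CPM in KD2 libraries, 10.8, 14.1 and 14.3 CPM in KD1 libraries and 11.8, 11.4 and 9.76 CPM in NT libraries. KD2 and KDR libraries each lay above every KD1 and NT library, with KD2 far above KDR. This gave a log2 fold change of 5.07 ± 0.10 in KD2 against NT (SE; edgeR adjusted p = 4.2e-21), -3.24 ± 0.09 in KDR against KD2 (adjusted p = 1.6e-18) and 1.83 ± 0.09 in KDR against NT (adjusted p = 7.1e-13).

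FGF13 (ENSG00000129682, chrX:138614727-139222777, minus strand), another intracellular factor of the same subfamily, had another pattern. Its level was 1.78, 2.84 and 1.39 CPM in KDR, 7.63, 8.19 and 9.73 CPM in KD2, 9.41, 8.94 and 10.3 CPM in KD1 and 8.66, 7.44 and 10.9 CPM in NT. Only the KDR libraries stood apart, all below every other library. FGF13 fell in KDR against KD2 (log2 fold change -2.08 ± 0.21, SE, edgeR adjusted p = 4.8e-08) and against NT (-2.16 ± 0.21, adjusted p = 3.8e-08), and was not called in KD2 against NT (-0.08, 95% interval -0.46 to 0.30). FGF2, a ligand of the FGF receptors, had 20 counts over 7 libraries. FGF11, an intracellular factor, had 22 counts over 7 libraries. Another gene on the same strand shares 82.1% of the FGF11 exon bases, and NUDT6, on the opposite strand, shares 11.8% of those of FGF2. The low counts of FGF11 and FGF2 may therefore not reflect their levels.

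Among FGF receptors, FGFR3 had the highest level. Its share of the summed TPM of FGFR1 to FGFR4 was 87.7 ± 0.22% in KDR, 83.4 ± 1.2% in KD2, 84.6 ± 0.5% in KD1 and 84.8 ± 2.1% in NT (SD, n = 3). The size of this share depends on the exon length by which each gene is divided. Without division by length, the NT means were 95.5 CPM for FGFR3, 29.8 CPM for FGFR1, 26.2 CPM for FGFR2 and 1.86 CPM for FGFR4. FGFR3 (ENSG00000068078, chr4:1793293-1808872, plus strand) had 130.0, 124 and 123 CPM in KDR, 71.5, 70.4 and 72.9 CPM in KD2, 93.0, 93.5 and 90.5 CPM in KD1 and 95.1, 89.9 and 101 CPM in NT. KDR libraries were the highest and KD2 libraries the lowest, and neither overlapped NT. FGFR3 fell in KD2 against NT (log2 fold change -0.42 ± 0.06, SE, edgeR adjusted p = 1.0e-05) and rose in KDR against KD2 (0.81 ± 0.06, adjusted p = 4.5e-10) and against NT (0.40 ± 0.06, adjusted p = 2.8e-05).

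In KD2 against NT, 4 of the 5 FGF receptor genes fell and none rose, where 18.2% of all genes tested fell and 17.8% rose. FGFR1, FGFR2 and FGFRL1, a family member that lacks the kinase domain, had log2 fold changes of -0.36, -0.36 and -0.30. FGFR4, at 2.48 ± 0.52 CPM in KD2 and 1.86 ± 0.93 CPM in NT, was not called (95% interval -0.19 to 1.01). In KDR against KD2, FGFR1 rose by 0.48 and FGFRL1 by 0.55 on the log2 scale, and FGFR2 was not called (0.07). The falls of FGFR1, FGFR2 and FGFRL1 in KD2 against NT were no longer called without KD2 replicate 1, with log2 fold changes over all alternatives of -0.49 to -0.24, -0.45 to -0.30 and -0.36 to -0.17, and that of FGFR1 was also lost without NT replicate 2.

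No ligand of the EGF receptor family rose in KD2 against NT, and 3 of 5 tested fell, where 17.8% of all genes tested rose and 18.2% fell. These ligands are made as membrane-bound precursors and cut loose by proteases. TGFA (ENSG00000163235, chr2:70447284-70554193, minus strand), which binds EGFR, had 268, 274 and 277 CPM in KDR, 221, 210.4 and 214 CPM in KD2, 402, 409 and 412 CPM in KD1 and 421, 353 and 389 CPM in NT. KD2 libraries were the lowest, KDR libraries lay between KD2 and the rest, and no library of either overlapped NT. The log2 fold change was -0.85 ± 0.06 in KD2 against NT (SE; edgeR adjusted p = 4.2e-11), 0.34 ± 0.06 in KDR against KD2 (adjusted p = 5.1e-05) and -0.51 ± 0.06 in KDR against NT (adjusted p = 3.5e-07).

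HBEGF (ENSG00000113070, chr5:140332843-140346603, minus strand), heparin-binding EGF-like growth factor, had 1.7, 2.39 and 2.67 CPM in KDR, 1.93, 2.19 and 2.5 CPM in KD2, 5.63, 5.53 and 6.45 CPM in KD1 and 5.65, 5.12 and 6.36 CPM in NT. KDR and KD2 libraries overlapped each other and lay below all KD1 and NT libraries. HBEGF fell in KD2 against NT (log2 fold change -1.38 ± 0.20, SE, edgeR adjusted p = 9.2e-06) and in KDR against NT (-1.35 ± 0.20, adjusted p = 1.9e-05), with 0.03 in KDR against KD2 (95% interval -0.41 to 0.47).

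BTC (ENSG00000174808, chr4:74744759-74794523, minus strand), betacellulin, a ligand of EGFR and ERBB4, showed low levels of 1.58, 1.1 and 1.1 CPM in KDR, 1.65, 1.67 and 1.75 CPM in KD2, 3.29, 3.99 and 2.89 CPM in KD1 and 2.92, 2.64 and 2.63 CPM in NT. All KDR and KD2 libraries lay below all KD1 and NT libraries. BTC fell in KDR against NT (log2 fold change -1.11 ± 0.25, SE, edgeR adjusted p = 0.0016) and in KD2 against NT (-0.69 ± 0.24, adjusted p = 0.029), a call that was lost in 6 of 19 alternatives, with values of -0.73 to -0.64.

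EGF itself averaged 19.3 ± 1.27 CPM in KDR, 27.2 ± 3.5 CPM in KD2 and 23.7 ± 3.7 CPM in NT and fell in KDR against KD2 (log2 fold change -0.49, edgeR adjusted p = 0.0015). AREG, amphiregulin, stayed near or under 1 CPM, with means of 0.143 ± 0.0836 CPM in KDR and 0.694 ± 0.305 CPM in KD2. It fell in KDR against KD2 (log2 fold change -2.24, 95% interval -3.77 to -0.71), a call lost without KD2 replicate 3, KDR replicate 1 or KDR replicate 3 (range -2.74 to -1.84). EREG and NRG1, ligands of ERBB receptors, had no count in any library, where 3 counts correspond to 0.0781 to 0.125 CPM.

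Both tested receptors of the EGF family changed in KD2 against NT, in opposite directions. EGFR, the receptor for TGFA, averaged 139.6 ± 1.02 CPM in KDR, 167 ± 3.94 CPM in KD2 and 139 ± 9.98 CPM in NT, a log2 fold change of 0.26 in KD2 against NT (edgeR adjusted p = 0.0015) and -0.26 in KDR against KD2. ERBB3, which binds neuregulins and has a weak kinase, went the other way, with means of 481 ± 2.8 CPM in KDR, 411 ± 3.74 CPM in KD2 and 486 ± 27.8 CPM in NT and log2 fold changes of -0.24 in KD2 against NT and 0.23 in KDR against KD2, both called. Neither was called in KDR against NT, where EGFR was at 0.00 and ERBB3 at -0.02. ERBB4 had 37 counts over 10 libraries and was not tested.

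Among the tested IGF receptors, substrates and binding proteins on the list, IGFBP3 had the largest log2 fold change in KD2 against NT, and per length it was 1 of the 3 most abundant members in KD2. IGFBP3 (ENSG00000146674, chr7:45912245-45921874, minus strand) is a secreted protein that carries IGFs and has been linked to growth arrest. It had 794, 799 and 779 CPM in KDR, 4002, 3936 and 4008 CPM in KD2, 572, 540.2 and 563 CPM in KD1 and 548, 559.5 and 549 CPM in NT. Libraries within each group lay close together, KD2 was highest, and KDR also lay above all KD1 and NT libraries. The log2 fold change was 2.85 ± 0.04 in KD2 against NT (SE; edgeR adjusted p = 1.1e-22), -2.33 ± 0.04 in KDR against KD2 (adjusted p = 1.5e-21) and 0.52 ± 0.04 in KDR against NT (adjusted p = 9.5e-10).

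IGFBP2, another IGF carrier, averaged 463 ± 5.44 CPM in KDR, 682 ± 32.2 CPM in KD2, 478 ± 17.6 CPM in KD1 and 538 ± 63.3 CPM in NT. It rose in KD2 against NT by 0.34 and had -0.56 in KDR against KD2 and -0.22 in KDR against NT on the log2 scale, all called. The call of IGFBP2 in KDR against NT was lost in 2 of 19 alternatives, with values of -0.30 to -0.14. IGFBP5 was not called in KD2 against NT (-0.01, 95% interval -0.27 to 0.26). Its fall in KDR against KD2 (-0.33, edgeR adjusted p = 0.049) was lost in 13 of 19 alternatives, DESeq2 among them, with values of -0.40 to -0.26. IGFBP4 had 4 counts in all.

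The IGF1 receptor moved opposite to IGFBP3 in KD2. IGF1R (ENSG00000140443, chr15:98648539-98964530, plus strand) had 497, 491 and 503 CPM in KDR, 289, 283 and 285 CPM in KD2, 448, 477 and 484 CPM in KD1 and 484, 488 and 473 CPM in NT. KD2 libraries lay below all others, and KDR libraries lay just above NT libraries. IGF1R fell in KD2 against NT (log2 fold change -0.75 ± 0.05, SE, edgeR adjusted p = 1.3e-11) and rose in KDR against KD2 (0.80 ± 0.05, adjusted p = 5.3e-12), with 0.04 in KDR against NT (95% interval -0.05 to 0.14).

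INSR, the insulin receptor, averaged 118 ± 3.19 CPM in KDR, 133 ± 1.39 CPM in KD2 and 125 ± 3.97 CPM in NT and was not called in KD2 against NT (0.08, 95% interval -0.03 to 0.20). The adaptors that couple these receptors to PI3K split. IRS1 had log2 fold changes of 0.25 in KD2 against NT, -0.29 in KDR against KD2 and -0.04 in KDR against NT, the last not called. IRS2 had -0.23, 0.50 and 0.27 in the same 3 comparisons, all called.

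RET fell in KD2 and was near NT in KDR. RET (ENSG00000165731, chr10:43077064-43130351, plus strand) is the receptor for GDNF-family ligands. It had 153, 151 and 153 CPM in KDR, 55.1, 62.0 and 58.6 CPM in KD2, 156, 150.4 and 144 CPM in KD1 and 149, 169 and 151 CPM in NT. The KD2 libraries lay below all others, which overlapped one another. For RET the log2 fold change was -1.42 ± 0.07 in KD2 against NT (SE; edgeR adjusted p = 5.0e-14), 1.38 ± 0.07 in KDR against KD2 (adjusted p = 8.4e-14) and -0.04 in KDR against NT (95% interval -0.17 to 0.09).

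MET (ENSG00000105976, chr7:116672196-116798377, plus strand), the receptor for hepatocyte growth factor, was low, at 0.79, 1.32 and 0.987 CPM in KDR, 1.76, 1.35 and 1.67 CPM in KD2, 0.425, 1.5 and 0.833 CPM in KD1 and 0.745, 0.397 and 0.533 CPM in NT. KD2 libraries lay above all KDR and NT libraries but overlapped KD1. MET rose in KD2 against NT (log2 fold change 1.50 ± 0.43, SE, edgeR adjusted p = 0.0083). KIT, the stem cell factor receptor, had 4 counts, all in 1 library.

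**Figure D3:**
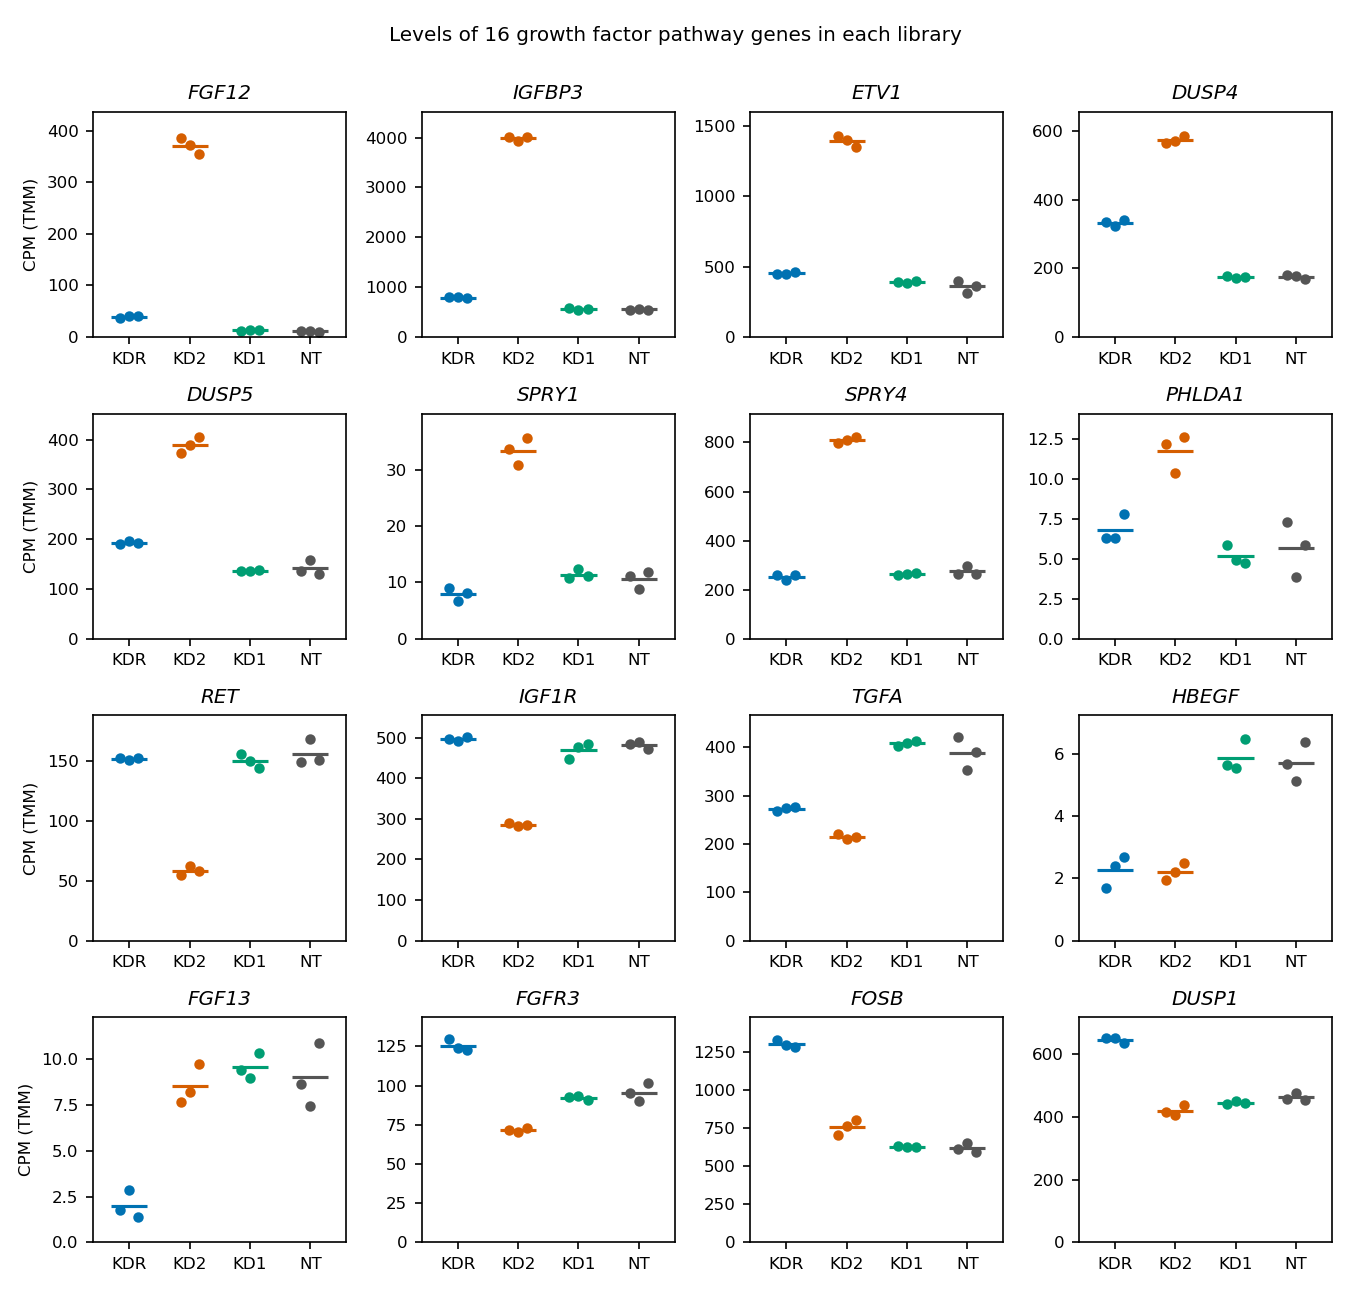
Level in CPM in each of 12 libraries (points) with the group mean (bars) for 16 genes, groups ordered KDR, KD2, KD1, NT. Every vertical axis starts at 0; KD2 libraries stand apart for FGF12, IGFBP3, ETV1, SPRY4, RET and IGF1R, and KDR libraries for FGF13, FOSB and DUSP1.

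Of the DUSP phosphatases, DUSP4 and DUSP5, nuclear enzymes that act on ERK, rose in KD2. DUSP4 (ENSG00000120875, chr8:29333064-29350684, minus strand) had 335, 325 and 342 CPM in KDR, 567, 572 and 587 CPM in KD2, 178, 172 and 174 CPM in KD1 and 180.5, 177 and 170.0 CPM in NT. KD2 was highest and KDR lay between KD2 and NT, with no overlap among the 3. For DUSP4 the log2 fold change was 1.71 ± 0.05 in KD2 against NT (SE; edgeR adjusted p = 1.5e-17), -0.79 ± 0.05 in KDR against KD2 (adjusted p = 1.2e-11) and 0.92 ± 0.05 in KDR against NT (adjusted p = 2.0e-12).

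DUSP5 (ENSG00000138166, chr10:110497907-110511533, plus strand) had 191, 197 and 192 CPM in KDR, 374, 389 and 405 CPM in KD2, 136, 135 and 138 CPM in KD1 and 137, 158 and 130.3 CPM in NT. The order of groups was the same as for DUSP4. Its log2 fold change was 1.46 ± 0.06 in KD2 against NT (SE; edgeR adjusted p = 1.6e-14), -1.01 ± 0.06 in KDR against KD2 (adjusted p = 1.0e-11) and 0.45 ± 0.06 in KDR against NT (adjusted p = 7.6e-06).

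DUSP6, the cytoplasmic ERK phosphatase, was not called in KD2 against NT (0.23, 95% interval -0.00 to 0.45), at 12.7 ± 0.95 CPM in KDR, 19.6 ± 2.03 CPM in KD2 and 16.8 ± 1.06 CPM in NT. It fell in KDR against KD2 (log2 fold change -0.63, edgeR adjusted p = 1.0e-04). A gene on the opposite strand shares 28.6% of the DUSP6 exon bases, with 5.67 counts on average in KD2 libraries and 8.67 in NT libraries, and the counting used no strand. DUSP1, a nuclear phosphatase that acts on p38 and JNK as well as ERK, had 653, 651 and 638 CPM in KDR, 415, 407 and 438 CPM in KD2, 442, 450.3 and 444 CPM in KD1 and 458, 476 and 455 CPM in NT. KDR libraries stood above all others and KD2 libraries below all others. DUSP1 rose in KDR against KD2 (log2 fold change 0.62 ± 0.05, SE, edgeR adjusted p = 3.3e-10) and against NT (0.48 ± 0.05, adjusted p = 3.2e-08), while its small fall in KD2 against NT (-0.14) was lost in 4 of 19 alternatives.

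The Sprouty genes did not move as 1 group. SPRY4 (ENSG00000187678, chr5:142310427-142326455, minus strand) had 258, 239 and 260.2 CPM in KDR, 799.6, 809 and 821 CPM in KD2, 261, 263 and 267 CPM in KD1 and 262, 297 and 266 CPM in NT. KD2 libraries lay far above all others, and the other groups lay near one another. The log2 fold change was 1.56 ± 0.06 in KD2 against NT (SE; edgeR adjusted p = 3.7e-16), -1.68 ± 0.06 in KDR against KD2 (adjusted p = 9.3e-17) and -0.12 in KDR against NT (adjusted p = 0.092).

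SPRY1 (ENSG00000164056, chr4:123396795-123403760, plus strand) had 9.01, 6.67 and 8.05 CPM in KDR, 33.7, 30.9 and 35.6 CPM in KD2, 10.8, 12.4 and 11.1 CPM in KD1 and 11.1, 8.83 and 11.8 CPM in NT. KD2 libraries again lay above all others. SPRY1 rose in KD2 against NT (log2 fold change 1.66 ± 0.12, SE, edgeR adjusted p = 3.0e-10) and fell in KDR against KD2 (-2.08 ± 0.13, adjusted p = 1.0e-11). Its fall in KDR against NT (-0.42) was lost in 4 of 19 alternatives. SPRY2 (ENSG00000136158, chr13:80335976-80341126, minus strand) had 31.8, 29.9 and 30.2 CPM in KDR, 32.6, 36.0 and 35.4 CPM in KD2, 37.3, 42.7 and 45.8 CPM in KD1 and 39.5, 39.5 and 43.6 CPM in NT. KDR and KD2 libraries lay below all NT libraries. SPRY2 fell in KD2 against NT (log2 fold change -0.24 ± 0.09, SE, edgeR adjusted p = 0.033), a call lost in 5 of 19 alternatives (-0.27 to -0.19), and in KDR against NT (-0.41 ± 0.09, adjusted p = 7.5e-04).

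The promoters of these Sprouty genes and of EGR1, the most abundant member, are printed because SPRY1 and SPRY4 rose in KD2 and SPRY2 did not. Each is 250 bases before and 50 after a RefSeq start (GRCh38.p14, strand of the gene, 5′ to 3′), and capitals mark matches to the EGR motif GCGNGGGCG on either strand and, in EGR1, to the CArG box bound by serum response factor. SPRY1 is chr4:123398136-123398435 (plus), SPRY2 chr13:80341077-80341376 (minus), SPRY4 chr5:142324198-142324497 (minus) and EGR1 chr5:138465229-138465528 (plus).
SPRY1: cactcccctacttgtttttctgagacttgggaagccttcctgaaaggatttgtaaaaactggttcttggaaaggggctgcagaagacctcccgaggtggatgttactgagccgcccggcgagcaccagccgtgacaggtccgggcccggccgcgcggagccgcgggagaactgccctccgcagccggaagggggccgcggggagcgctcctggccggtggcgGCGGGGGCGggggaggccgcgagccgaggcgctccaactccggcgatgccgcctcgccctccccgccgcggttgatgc
SPRY2: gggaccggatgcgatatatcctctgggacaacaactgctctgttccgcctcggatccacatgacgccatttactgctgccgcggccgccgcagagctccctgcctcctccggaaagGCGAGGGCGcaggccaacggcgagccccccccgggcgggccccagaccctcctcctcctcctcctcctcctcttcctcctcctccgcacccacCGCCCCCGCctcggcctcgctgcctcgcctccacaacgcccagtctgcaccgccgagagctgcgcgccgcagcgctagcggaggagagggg
SPRY4: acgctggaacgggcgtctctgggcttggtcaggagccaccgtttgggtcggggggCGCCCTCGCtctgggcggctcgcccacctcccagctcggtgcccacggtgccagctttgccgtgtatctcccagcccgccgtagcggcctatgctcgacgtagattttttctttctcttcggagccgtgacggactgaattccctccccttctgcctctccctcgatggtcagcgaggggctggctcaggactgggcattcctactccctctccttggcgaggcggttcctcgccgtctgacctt
EGR1: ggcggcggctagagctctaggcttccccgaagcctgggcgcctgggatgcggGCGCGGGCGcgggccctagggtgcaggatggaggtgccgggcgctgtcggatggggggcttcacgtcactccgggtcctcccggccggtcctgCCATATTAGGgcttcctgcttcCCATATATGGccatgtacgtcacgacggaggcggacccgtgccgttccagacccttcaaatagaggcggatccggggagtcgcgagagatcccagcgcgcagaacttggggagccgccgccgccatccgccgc
Relative to the first base of the start, the EGR match lies at -28 to -20 in SPRY1, at -134 to -126 and -41 to -33 in SPRY2, at -195 to -187 in SPRY4 and at -198 to -190 in EGR1, whose CArG matches lie at -105 to -96 and -83 to -74. All 3 Sprouty genes held the EGR motif in a window, whether they rose or fell. SPRY1 and SPRY2 have other starts whose windows held none of the motifs, and which start these cells use was not measured.

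Over the members with a window in the table (71 windows of 46 genes), 15.5% of windows held the EGR motif, against 9.43% of all 35116 windows. Shares for the other motifs searched, each on both strands, were 8.45% of member windows against 7.71% of all for AP-1 (TGANTCA), 4.23% against 1.85% for the cyclic AMP response element (TGACGTCA), 0.0% against 4.14% for ETS (CCGGAAGT), 4.23% against 1.29% for the CArG box and 14.1% against 11.5% for TATAAA. The cyclic AMP element stood in the DUSP1, AREG and JUND windows and the CArG box in those of EGR1, EGR2 and IGFBP2. These matches are a description of letters and no test was made.

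Of the other inhibitors, SPRED1 and SPRED2, which hold back RAF, were not called in KD2 against NT (-0.01 and 0.08 on the log2 scale, 95% intervals -0.21 to 0.20 and -0.03 to 0.20). SPRED2 fell in KDR, with means of 134 ± 5.06 CPM in KDR, 181 ± 0.741 CPM in KD2 and 171 ± 9.3 CPM in NT and log2 fold changes of -0.44 against KD2 and -0.35 against NT (edgeR adjusted p = 2.1e-06 and 4.7e-05). ERRFI1, which binds and blocks EGFR, averaged 90.1 ± 3.7 CPM in KDR, 101 ± 1.64 CPM in KD2 and 87.8 ± 4.64 CPM in NT, and its log2 fold change of 0.20 in KD2 against NT was lost in 3 of 19 alternatives.

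The AP-1 subunits shifted against one another. FOSB (ENSG00000125740, chr19:45467995-45475179, plus strand), a FOS-family subunit, had 1335, 1299.8 and 1285 CPM in KDR, 709.9, 764 and 803 CPM in KD2, 633, 625 and 628 CPM in KD1 and 617, 654 and 593 CPM in NT. KDR libraries lay far above the rest, and KD2 libraries lay above NT. FOSB rose in KDR against NT (log2 fold change 1.07 ± 0.05, SE, edgeR adjusted p = 2.3e-13), in KDR against KD2 (0.78 ± 0.05, adjusted p = 2.0e-11) and in KD2 against NT (0.29 ± 0.05, adjusted p = 7.0e-05).

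JUN (ENSG00000177606, chr1:58776845-58784048, minus strand) had 1599, 1607 and 1566 CPM in KDR, 1382, 1473 and 1507 CPM in KD2, 1943, 1931 and 1900.1 CPM in KD1 and 1892, 2074 and 1979 CPM in NT. KDR and KD2 libraries lay below all KD1 and NT libraries. JUN fell in KD2 against NT (log2 fold change -0.45 ± 0.04, SE, edgeR adjusted p = 2.3e-08) and in KDR against NT (-0.32 ± 0.04, adjusted p = 6.9e-06). JUNB (ENSG00000171223, chr19:12791486-12793315, plus strand), a JUN-family subunit that often opposes JUN, had 522, 525 and 502 CPM in KDR, 690.3, 698 and 789 CPM in KD2, 453, 417 and 420.2 CPM in KD1 and 430.0, 484 and 420.1 CPM in NT. KD2 libraries were the highest. JUNB rose in KD2 against NT (0.71 ± 0.06, adjusted p = 2.6e-09) and had a log2 fold change of -0.49 in KDR against KD2 (edgeR adjusted p = 9.1e-07). HOOK2, on the opposite strand, shares 14.2% of the JUNB exon bases, and had 3120 counts on average in KD2 libraries and 2880 in NT libraries.

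As shares of the summed TPM of all AP-1 subunits, JUN made up 20.3 ± 0.15% in KDR, 20.0 ± 0.33% in KD2, 28.5 ± 0.33% in KD1 and 28.7 ± 0.44% in NT (SD, n = 3 each). JUNB made up 13.0 ± 0.12% in KDR, 19.8 ± 0.74% in KD2, 12.6 ± 0.42% in KD1 and 12.8 ± 0.47% in NT. FOSB made up 10.9 ± 0.11% in KDR, 6.81 ± 0.15% in KD2, 6.09 ± 0.034% in KD1 and 5.89 ± 0.16% in NT. FOS held the largest share in every group, between 39.7% and 42.0%. FOS itself averaged 2901 ± 49.0 CPM in KDR, 2569 ± 13.3 CPM in KD2 and 2404 ± 119.6 CPM in NT and rose in KDR against NT (log2 fold change 0.27, edgeR adjusted p = 1.5e-05).

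The remaining subunits changed less or were low. JUND varied within KD2, at 417, 482 and 541 CPM, was not called in KD2 against NT (0.12), and rose in KDR against NT (0.32, edgeR adjusted p = 7.7e-04). FOSL2 had log2 fold changes of -0.18 in KD2 against NT and -0.21 in KDR against NT, both called. The first call was lost in 11 of 19 alternatives and the second in 2 of 19. FOSL1 stayed near or under 1 CPM and was not called in any comparison.

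EGR3 rose against NT in both KD2 and KDR. EGR3 (ENSG00000179388, chr8:22687659-22693480, minus strand), a zinc finger factor of the EGR1 family, had 58.9, 56.9 and 52.0 CPM in KDR, 55.5, 63.6 and 59.2 CPM in KD2, 33.8, 31.3 and 33.4 CPM in KD1 and 33.3, 32.1 and 34.5 CPM in NT. KDR and KD2 libraries overlapped each other and lay above all KD1 and NT libraries. For EGR3 the log2 fold change was 0.84 ± 0.08 in KD2 against NT (SE; edgeR adjusted p = 1.0e-08), 0.75 ± 0.08 in KDR against NT (adjusted p = 1.1e-07) and -0.09 in KDR against KD2 (95% interval -0.24 to 0.07).

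EGR2 went the other way, at 135 ± 3.01 CPM in KDR, 93.2 ± 1.47 CPM in KD2 and 127 ± 14.0 CPM in NT. Its log2 fold change was -0.45 in KD2 against NT (edgeR adjusted p = 1.1e-05) and 0.54 in KDR against KD2 (adjusted p = 1.4e-06). EGR1 averaged 2977 ± 55.4 CPM in KDR, 3062 ± 128 CPM in KD2 and 2612 ± 306 CPM in NT and rose by 0.23 in KD2 against NT on the log2 scale. IER2 rose by 0.32 in KD2 against NT, with 596 ± 19.7 CPM in KD2 and 479 ± 77.0 CPM in NT. IER3 was not called in any comparison, at 4.07 ± 0.235 CPM in KD2 and 4.06 ± 0.642 CPM in NT. Genes on the opposite strand share up to 30.7% of the IER2 exon bases, with no count of their own, and up to 32.6% of those of IER3. That absence of counts does not show that the IER2 count was unaffected by the overlap.

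Of the transcription factors on the list, ETV1 had the largest log2 fold change in KD2 against NT. ETV1 (ENSG00000006468, chr7:13891229-13991425, minus strand) is an ETS factor of the PEA3 subfamily and is known to be rearranged in this cell line. It had 446, 448 and 462 CPM in KDR, 1428, 1399.5 and 1353 CPM in KD2, 390.3, 385 and 400.4 CPM in KD1 and 398, 317 and 365 CPM in NT. KD2 libraries lay far above all others, and KDR libraries lay above all KD1 and NT libraries. The log2 fold change was 1.95 ± 0.06 in KD2 against NT (SE; edgeR adjusted p = 6.1e-17), -1.62 ± 0.06 in KDR against KD2 (adjusted p = 1.4e-15) and 0.33 ± 0.06 in KDR against NT (adjusted p = 2.3e-04).

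Its relatives moved less. ETV4 averaged 59.5 ± 1.46 CPM in KDR, 75.5 ± 1.86 CPM in KD2 and 58.3 ± 2.41 CPM in NT, with log2 fold changes of 0.37 in KD2 against NT and -0.34 in KDR against KD2 (edgeR adjusted p = 2.3e-04 and 6.4e-04). ETV5 was not called in KD2 against NT (0.20, 95% interval 0.01 to 0.39) and fell in KDR against KD2 (-0.44). PHLDA1 (ENSG00000139289, chr12:76025447-76031776, minus strand), a pleckstrin-like gene induced by growth factors, had 6.29, 6.29 and 7.79 CPM in KDR, 12.2, 10.4 and 12.6 CPM in KD2, 5.84, 4.95 and 4.76 CPM in KD1 and 7.3, 3.87 and 5.87 CPM in NT. KD2 libraries were the highest, and KDR overlapped NT. PHLDA1 rose in KD2 against NT (log2 fold change 1.04 ± 0.18, SE, edgeR adjusted p = 7.5e-05) and fell in KDR against KD2 (-0.79 ± 0.18, adjusted p = 0.0014).

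No difference between KD1 and NT was called in these genes. None of the 49 members passed, where 0.0% of all genes tested were called by edgeR, with 1185 genes at an unadjusted p under 0.05 and no gene called by DESeq2, and edgeR called 23 genes when no filter on low counts was used. Of the members, FGF12 and IGFBP2 were at an unadjusted p under 0.05, with log2 fold changes of 0.25 and -0.17 (edgeR adjusted p = 0.79 for both). The 95% interval of the log2 fold change lay within a 2-fold change either way for 46 of the 49 members, the exceptions being the low genes AREG, FOSL1 and MET, and within 1.5-fold for 43. For IGFBP3 that interval was -0.07 to 0.10, for SPRY4 -0.17 to 0.05 and for RET -0.19 to 0.07 on the log2 scale. These intervals rest on 1 spread per gene shared by all 4 groups, although NT libraries varied most (biological coefficient of variation 15.75%).

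Set directly against KD1, KD2 had 20 members higher and 13 lower, 33 of 49 in all, against a background of 17.9% of all genes called higher, 17.5% lower and 35.5% either way. The largest were FGF12 (4.83 ± 0.09, SE), IGFBP3 (2.83 ± 0.04), ETV1 (1.83 ± 0.06), DUSP4 (1.72 ± 0.05) and SPRY4 (1.62 ± 0.06), all higher in KD2. HBEGF (-1.42 ± 0.20) and RET (-1.36 ± 0.07) were lower in KD2 by more than 1 on the log2 scale. These differences are between libraries both labelled as knockdowns of DHODH, whose DHODH level was 13.1 CPM in KD2 and 10.3 CPM in KD1 on average.

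**Figure D4:**
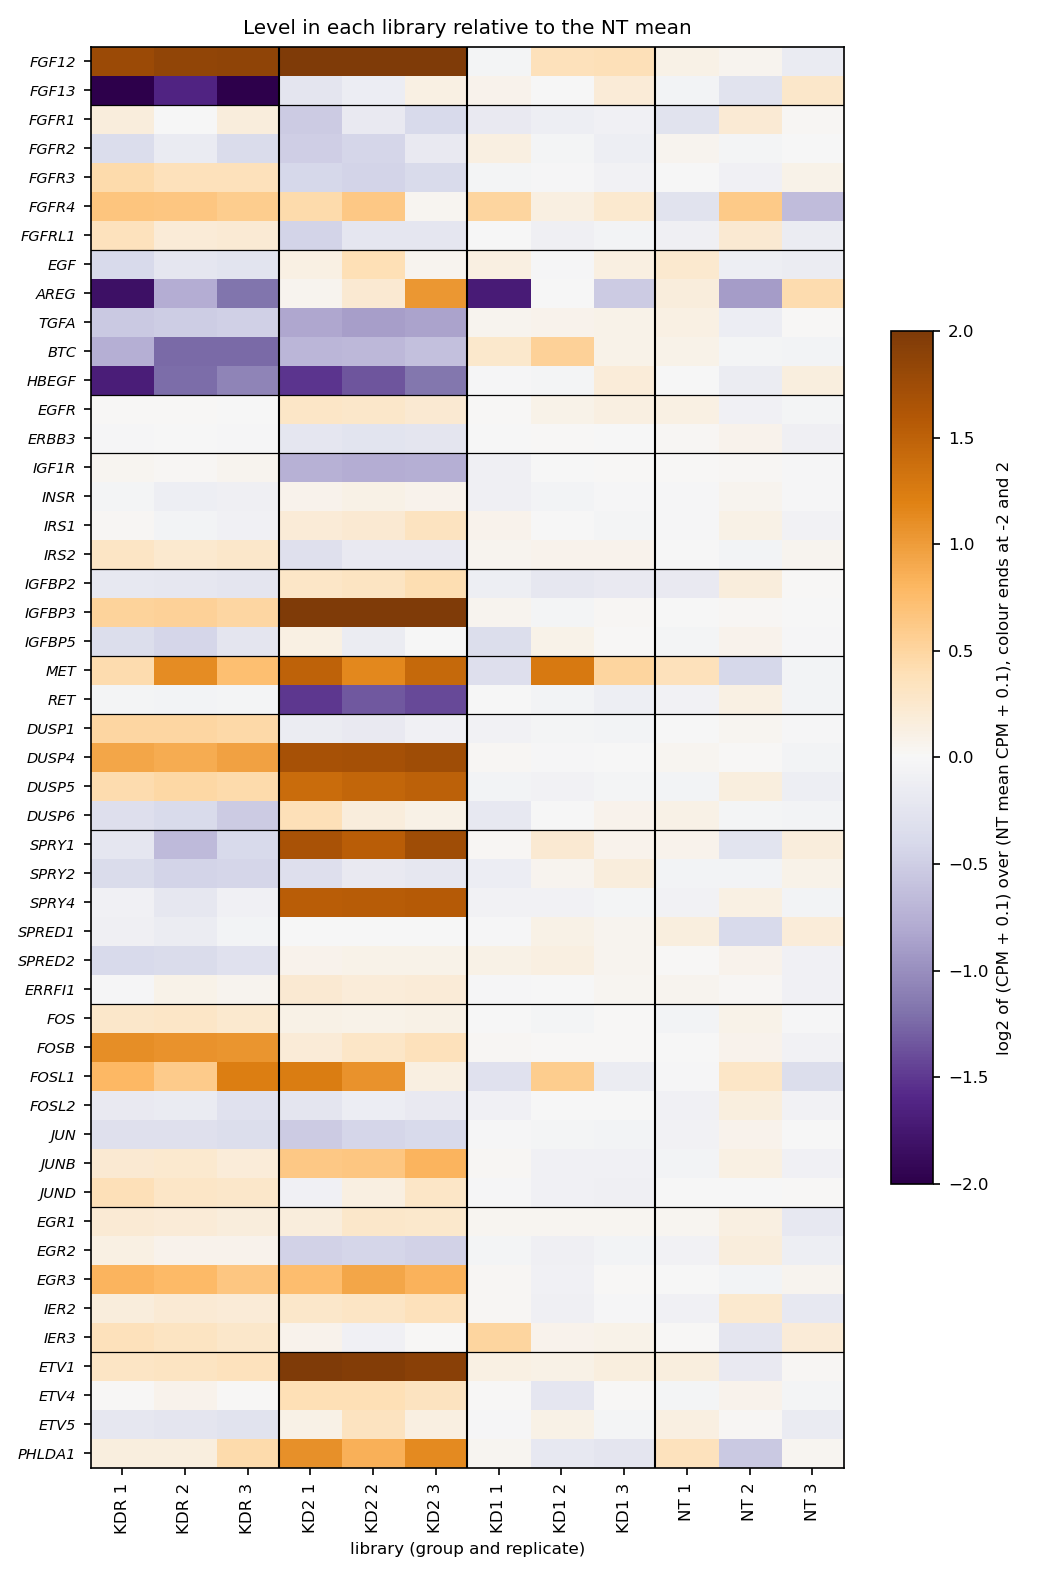
Level of the 49 tested genes (rows, in blocks by role) in each of 12 libraries (columns, ordered KDR, KD2, KD1, NT), as log2 of CPM plus 0.1 over the NT mean plus 0.1, with colours ending at -2 and 2. KD1 columns are near white apart from low genes such as AREG, MET and FOSL1, while the KD2 and KDR columns are coloured in most blocks and differ from each other for FGF13, SPRY4, RET and FOSB.

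The wider pathway was followed with 9 further lists that hold no member. Their counts are read beside the shares of all genes tested, 17.8% higher and 18.2% lower in KD2 against NT and 15.3% higher and 17.1% lower in KDR against KD2. Of 42 tested genes of the RAS to ERK core, 6 rose and 9 fell in KD2 against NT, which is 35.7% called, against 35.9% of all genes. RPS6KA2, a kinase downstream of ERK, averaged 22.2 ± 1.03 CPM in KDR, 24.7 ± 2.2 CPM in KD2 and 59.1 ± 3.05 CPM in NT (log2 fold change -1.26 in KD2 against NT and -1.41 in KDR against NT). SRF, the factor that binds CArG boxes, averaged 301 ± 3.05 CPM in KDR, 357 ± 12.2 CPM in KD2 and 227 ± 14.3 CPM in NT (0.65 in KD2 against NT), and KSR1, a scaffold of the cascade, fell by 0.89 on the log2 scale. Without NT replicate 2, 8 of these 42 genes rose and 16 fell, where 7582 of 20065 genes tested were called. Of 27 tested genes of the PI3K and AKT core, 7 rose and 8 fell, among them the kinase MTOR (0.46), its inhibitor DEPTOR (0.86) and the kinase SGK1 (-0.97, all log2 fold changes).

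Of 18 other ligands tested, 3 rose and 9 fell in KD2 against NT, and the list's median log2 fold change was -0.42 against -0.01 over all genes. VEGFA, the vascular growth factor, averaged 1065 ± 14.3 CPM in KDR, 439 ± 10.1 CPM in KD2 and 698 ± 4.23 CPM in NT. KITLG, the ligand of KIT, averaged 2.33 ± 0.423 CPM in KDR, 3.19 ± 0.674 CPM in KD2 and 11.3 ± 2.74 CPM in NT, and PROS1, a ligand of TAM receptors, rose by 1.07 on the log2 scale. Of 25 other receptor tyrosine kinases tested, 8 rose and 6 fell in KD2 against NT, while 1 rose and 9 fell in KDR against KD2. ALK averaged 6.9 ± 1.05 CPM in KDR, 24.9 ± 2.21 CPM in KD2 and 3.1 ± 0.353 CPM in NT, and EPHB2 1.54 ± 0.132 CPM in KDR, 9.62 ± 1.03 CPM in KD2 and 2.37 ± 0.754 CPM in NT. IGF2R, which clears IGF2 and is no tyrosine kinase, fell by 0.66 in KD2 against NT on the log2 scale.

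Of 31 other DUSP, Sprouty-related and receptor inhibitors tested, a list that also holds further IGF binding proteins, 8 rose and 8 fell in KD2 against NT (35.9% of all genes tested were called), among them LRIG1, a brake on EGF receptors (-1.16 in KD2 against NT and 1.03 in KDR against KD2), the phosphatase DUSP3 (-0.69) and the ubiquitin ligase NEDD4L (-0.42, all log2 fold changes). Of 45 other immediate early and serum response genes, 17 rose and 17 fell, with log2 fold changes for NFKBIZ at -0.98, KLF4 at -0.94 and ID2 at 1.23. In KDR against KD2 that list had 21 higher and 15 lower, where 32.4% of all genes were called. Of 24 other ERK output genes, 5 rose and 7 fell, with log2 fold changes for KCNN4, a potassium channel, at 1.48 and for the ETS factor ETS2 at -0.55.

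Of 29 genes for ligand shedding and heparan sulfate co-receptors, 9 rose and 9 fell in KD2 against NT, where 35.9% of all genes tested were called either way. PAPPA2, a protease that cuts IGF binding proteins, averaged 40.5 ± 2.14 CPM in KDR, 1.82 ± 0.325 CPM in KD2, 10.1 ± 0.759 CPM in KD1 and 11.8 ± 0.724 CPM in NT, with log2 fold changes of -2.71 in KD2 against NT and 4.49 in KDR against KD2. The heparan sulfate carriers SDC4 and HSPG2 rose by 0.93 and 1.41 in KD2 against NT on the log2 scale. Of 22 genes of the p38 and JNK arms, 6 rose and 5 fell, and MAPK10, a JNK known mainly from neurons, averaged 24.5 ± 0.44 CPM in KDR, 1.72 ± 0.397 CPM in KD2 and 24.4 ± 1.51 CPM in NT. MAP3K5 and MAPK13 of the same list rose by 0.93 and 0.66 on the log2 scale.

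**Figure D5:**
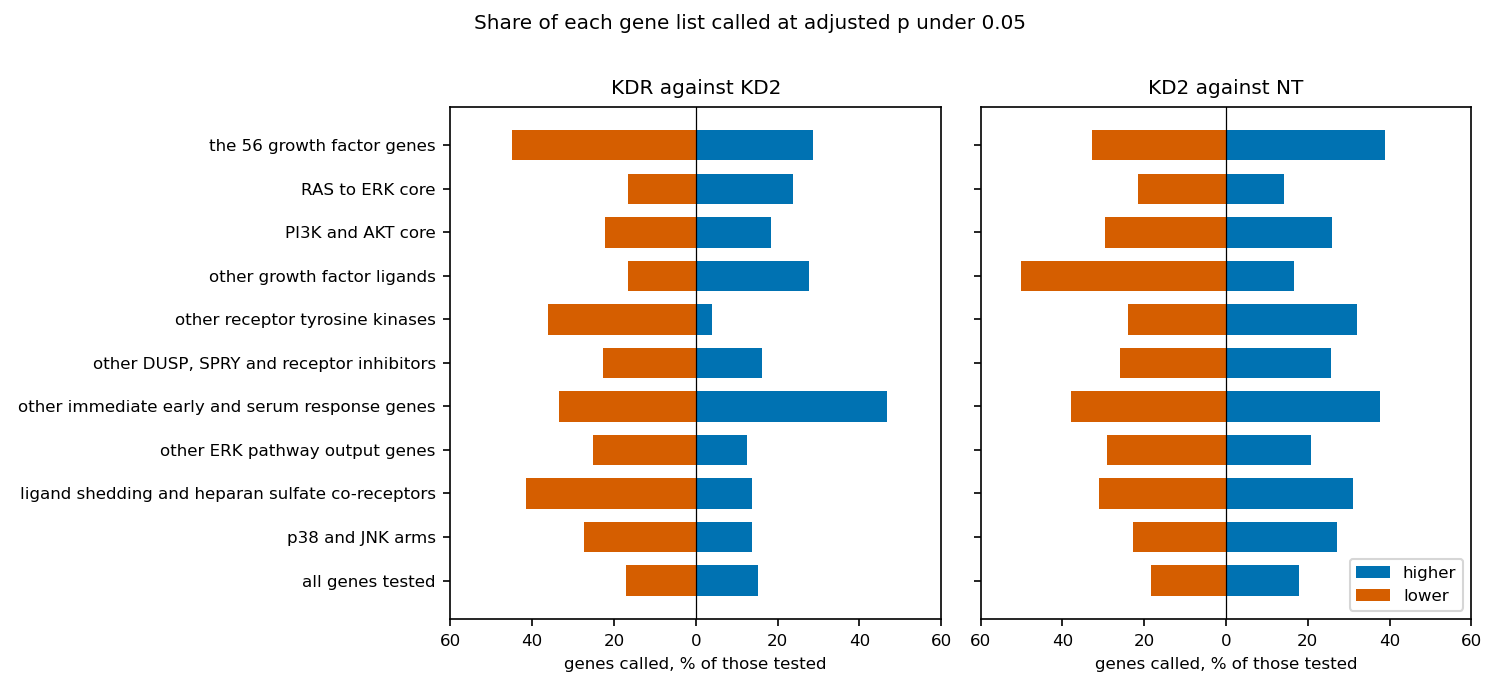
Percentage of the tested genes of each list called higher (right of 0) or lower (left of 0) at an adjusted p under 0.05, for KDR against KD2 and KD2 against NT, with all genes tested at the bottom. The 56 growth factor genes are at the top, and the other growth factor ligands have the longest bar to the left in KD2 against NT.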

How the data were processed

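The authors deposited raw read counts per gene for each library; per the file headers, exons were summed by gene with featureCounts 1.6.4 (Ensembl 111, GRCh38), without settings for strand, read pairs or multiple mapping. The submitters' processing notes also name FastQC, cutadapt and HISAT2, with versions not given in the sources used here. Symbols from an annotation table matched 42338 of 63241 genes, with 99.3% of counts. Here edgeR 4.0.16 in R 4.3.3 kept 19373 genes (filterByExpr), scaled libraries by TMM and fitted 1 quasi-likelihood model to all 12 libraries with the group as the only term, and was tested on simulated data. Comparisons used Benjamini-Hochberg adjustment over all genes tested, with 0.05 as the limit. Intervals and floors cover counting and library spread only, and 3 counts equal 0.0781 to 0.125 CPM. No pair of replicates agreed within sampling noise.

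Per-library values are given for members called in KD2 against NT, KDR against KD2 or KDR against NT with a change of 1 or more on the log2 scale and a mean of at least 1 CPM in a group compared. Values per library of FGFR3, TGFA, IGF1R, DUSP1, SPRY2, JUN, JUNB, JUND and EGR3 are shown beyond this rule and were chosen after their values were seen. From each further list, up to 3 genes called in KD2 against NT, by adjusted p and with at least 5 CPM in either group, are named, except 1 that is not reported here. Members and lists were chosen with earlier results of these data known. Alternatives were DESeq2 1.42.0, its size factors in edgeR, no filter, at least 1 CPM in 3 libraries, a fit of only 2 groups, a replicate block, leaving out each library, and, chosen after seeing the data, scaling by library size only. Promoter sequences are RefSeq's (GRCh38.p14).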

Additional observations from a re-analysis of the deposited data

How the results depend on the processing

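Of the members called, 27 of 35 in KD2 against NT, 30 of 36 in KDR against KD2, 20 of 27 in KDR against NT and 25 of 33 in KD2 against KD1 stayed called in the same direction under every alternative run, and no called member reversed. Of those that changed by 1 or more on the log2 scale, all stayed called except AREG in KDR against KD2. That threshold left 11 members in KD2 against NT, 9 in KDR against KD2, 5 in KDR against NT and 10 in KD2 against KD1. Of all genes tested, 9.27%, 8.69%, 6.45% and 8.94% were called with such a change in the same comparisons. Leaving out 1 library gave 28 to 37, 31 to 37, 23 to 33 and 27 to 38 called members in these comparisons, and 0 to 0 in KD1 against NT. Over all genes it gave 5958 to 7582, 5093 to 7876, 4177 to 6180 and 5856 to 8219 called, and 0 to 0 in KD1 against NT. It gave 14 to 24 genes of the RAS to ERK core in KD2 against NT, 7 to 16 in KDR against NT and 16 to 26 in KD2 against KD1, each highest without NT replicate 2. For DHODH it gave log2 fold changes of 0.21 to 0.52 in KD2 against NT, 0.41 to 0.60 in KDR against KD2 and 0.24 to 0.43 in KD2 against KD1, called in KD2 against NT without NT replicate 2 (0.52), not called in KDR against KD2 without KD2 replicate 1 (0.41), and called in KD2 against KD1 without NT replicate 2 (0.33) or KD2 replicate 1 (0.43). A fit of only the 2 groups compared gave 6 genes of the RAS to ERK core and 5 of the PI3K and AKT core in KDR against NT, 26 of the RAS to ERK core in KD2 against KD1, and called DHODH in KD2 against KD1 (0.33). Among members, that fit lost 5 calls in KD2 against NT and 6 in KDR against NT. It gained 1 in KDR against KD2 and 5 in KD2 against KD1. Without a filter on low counts, 23 of all genes and 1 other immediate early gene were called in KD1 against NT. The balance of directions within a list could shift. In KDR against NT the RAS to ERK core had 6 genes higher and 4 lower, and 7 higher and 9 lower without NT replicate 2. Of all genes tested, 13.0% were higher and 14.5% lower, and without NT replicate 2 it was 2817 and 3363 of 20065. The causes were not tested. Scaling alternatives moved the median of all genes by under 0.1 on the log2 scale.

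Replicate numbers gave no sign of pairing. The deviations from group means correlated at -0.023 to 0.039 over 18 same-numbered pairs, 0 of them above 0.1, and 5 of 12 libraries correlated best with their own number. With the replicate number as a block, the 49 members kept their side of the threshold in KD2 against NT, KDR against NT, KD2 against KD1 and KD1 against NT, and 2 lost their call in KDR against KD2 (34 called). Members near 1 CPM or below, such as MET, AREG and FOSL1, are measured least surely at this depth.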

Other observations

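IGFBP1, a secreted IGF binding protein, is not among the 56 genes but is counted in the list of other DUSP, Sprouty-related and receptor inhibitors, and it was singled out after its values were seen. It had 0.175, 0.161 and 0.0731 CPM in KDR libraries, 1.48, 2.26 and 1.13 CPM in KD2 libraries and no count in any KD1 or NT library. All KD2 libraries lay above all KDR libraries, and all KDR libraries lay above KD1 and NT. No fold is given, since 3 counts correspond to 0.0781 to 0.125 CPM and the KDR libraries lay near that level.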
